A study of Mus musculus with 2 samples.

Results

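Dcn-positive fibroblasts and stromal cells made up 62 of the 7765 cells kept from mouse pancreatic islets, 58 in the virgin library and 4 in the multipara library. A cell was counted among them when 5 or more UMIs (unique molecular identifiers, each tagging 1 captured RNA molecule) came from Dcn, Col1a1, C3 and Ccl21a together, with at least 2 of these genes detected. This sum also had to be at least as large as that of the pericyte genes Rgs5, Ndufa4l2, Higd1b and Cox4i2, and under 15% of the UMIs of the cell could come from the islet hormones Ins1, Ins2, Gcg, Sst and Ppy. Both libraries were made from islets of wild-type female C57BL/6J mice, which the study assigned to its groups at 9 weeks of age. Virgin littermates were the controls, and multipara mice had given birth 3 times in a row and were studied 3 weeks after the last delivery. Islets were dispersed with trypsin and processed with 3′ single-cell chemistry, and each group is represented by 1 library. The study gives only a minimum number of animals per group, cells are not assigned to animals in the files used here, and without a second library the spread between animals is unknown, so no test between groups was made. Intervals in brackets are 95% intervals that cover counting error only.

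Fibroblasts secrete and turn over the collagen, proteoglycan and elastic fibre matrix around vessels, ducts and islets. They also secrete complement proteins, growth factors and chemokines, the small proteins that guide leukocytes. In lymphoid tissue, specialised reticular stromal cells make CCL21 and CCL19, which draw T cells and dendritic cells through a shared receptor, and CXCL13, which draws B cells. Pericytes, the contractile mural cells wrapped around capillaries, are close relatives of fibroblasts in the islet and served as the main comparison.

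The virgin and multipara libraries held 5463 and 5075 barcodes with 94853806 and 82503776 UMIs, and 952 and 601 of the kept cells fell under the hormone limit (non-endocrine cells). The libraries had 7 barcode sequences in common, 0 of them among the stromal cells. The virgin stromal cells held 444890 UMIs, with a median of 6658.5 per cell (range 1117 to 22966), and the 4 multipara cells held 18109, or 7422, 5842, 1681 and 3164 each. Levels are given as CPM, the summed UMIs of a gene per 1000000 UMIs of the same cells, so that 1 UMI equalled 2.25 CPM in the virgin and 55.2 CPM in the multipara cells. A gene at 0 UMIs was set to 3 counts for any ratio, which equals 6.74 and 165.7 CPM in these cells, and the ratio is then given as a bound ("at least").

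The virgin library held a larger share of these cells than the multipara library. They were 58 of 952 non-endocrine cells in the virgin library (6.09%, 4.66 to 7.81) and 4 of 601 in the multipara library (0.666%, 0.182 to 1.70), and the intervals did not overlap. Of all kept cells they were 1.32% and 0.119%. Without the virgin cells that carried Ccl21a, the virgin share was still 4.41% (3.20 to 5.92). Pericytes, by contrast, numbered 65 and 70. T cells were 12.2% of virgin and 6.66% of multipara non-endocrine cells and B cells 18.7% and 6.99%, so the lymphocyte shares moved in the same direction as the stromal share, and their part in the result was not tested. Fewer such cells in the islet and poorer recovery of them during isolation cannot be told apart.

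The values that chose the cells are given as a description. The summed UMIs of the 4 marker genes ran from 19 to 1064 in the virgin cells with a median of 124, and were 228, 155, 22 and 21 in the multipara cells. Just outside the rule, 3 virgin cells with marker sums of 5, 13 and 21 had a larger pericyte sum. A further 10 virgin cells, 7 of them in the macrophage class, had 6 to 155 UMIs from a single marker gene, as did 3 multipara cells with 22 to 29. A minimum of 3 or of 10 UMIs in place of 5 gave the same members.

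The label was checked against markers of other cell types. Over all stromal cells together, defining markers of endothelium, leukocytes, Schwann, acinar, duct and mesothelial cells were at or near 0. Those of pericytes and endocrine cells were not. In the virgin cells the pericyte list summed to 791 CPM, against 14965 CPM in virgin pericytes, and the endocrine list to 11012 CPM. The contractile list summed to 1047 CPM, against 6237 CPM in virgin pericytes. In the 58 virgin cells the endothelial markers Pecam1, Cdh5 and Kdr and the leukocyte marker Ptprc had 0 UMIs. Of 9 endothelial markers 3 were detected, nearly all as Plvap (67 UMIs in 26 cells), and the list summed to 159.6 CPM against 23319 CPM in endothelium. Plvap was found in 14 of the 16 virgin cells with Ccl21a and in 12 of the other 42. The endothelial list summed to 270 CPM in the 16 and 83.5 CPM in the 42. The macrophage list, with 4 of 9 markers detected, summed to 24.7 CPM against 19957 CPM in macrophages. T cell markers summed to 13.5 CPM (Trac alone, 6 UMIs), B cell markers to 2.25 CPM (1 UMI), Schwann cell markers to 6.74 CPM, acinar markers to 20.2 CPM and duct markers to 31.5 CPM. Other immunoglobulin genes, outside that B cell list, had most of their UMIs in 1 cell each. Igkc had 71 UMIs in 21 virgin cells, 48 of them in 1 cell, Ighm 21 UMIs with 16 in 1 cell and Jchain 10 UMIs with 8 in 1 cell. Igkc was also found in 45.0% of virgin beta cells. Mesothelial markers summed to 71.9 CPM, including 8 Upk3b UMIs in 2 cells. Of their 32 UMIs, 19 lay in the 11 C3-high cells described below (263 CPM). In the 4 multipara cells the endothelial, macrophage, T cell, B cell, Schwann, acinar and mesothelial lists were all at 0 UMIs, which at this depth allows up to 165.7 CPM, and duct markers summed to 110.4 CPM. Of the proliferation genes, Mki67 had 1 UMI in the virgin cells, and the list of 10 summed to 76.4 CPM in them and 55.2 CPM in the multipara cells.

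Ccl21a was present in some of these cells and at 0 in the others, and its promoter and those of Cxcl9 and Cxcl1 are printed because these chemokine genes were higher in 16 of the virgin cells than in the other 42. Each run is the 250 bases before the annotated gene start in RefSeq on GRCm38.p6, written 5′ to 3′ in the direction of transcription, and capitals mark a TATAAA match or a match to the NF-κB consensus, searched on both strands.
Ccl21a (chr4:42773992-42774241, minus strand): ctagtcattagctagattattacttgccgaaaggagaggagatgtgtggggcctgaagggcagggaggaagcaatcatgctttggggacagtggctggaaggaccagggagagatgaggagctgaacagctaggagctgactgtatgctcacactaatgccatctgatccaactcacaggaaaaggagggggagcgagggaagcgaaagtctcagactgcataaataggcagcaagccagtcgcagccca
Cxcl9 (chr5:92328080-92328329, minus strand): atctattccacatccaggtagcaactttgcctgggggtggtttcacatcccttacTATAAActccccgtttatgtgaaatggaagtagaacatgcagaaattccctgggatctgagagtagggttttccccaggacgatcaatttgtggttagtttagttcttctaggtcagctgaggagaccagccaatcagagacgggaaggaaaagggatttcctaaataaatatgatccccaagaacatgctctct
Cxcl1 (chr5:90890995-90891244, plus strand): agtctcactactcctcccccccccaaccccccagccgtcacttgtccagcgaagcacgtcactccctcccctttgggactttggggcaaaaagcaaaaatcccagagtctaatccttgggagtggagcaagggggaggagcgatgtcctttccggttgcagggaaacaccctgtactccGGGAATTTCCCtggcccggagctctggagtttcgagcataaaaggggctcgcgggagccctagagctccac
The TATAAA match of Cxcl9 lay 195 bases before the start, and Cxcl1 held overlapping NF-κB matches on both strands, 71 and 70 bases before the start. Among 32851 windows of the same length, 3.90% held an NF-κB match and 12.4% held TATAAA. Of 35 list or named genes that were higher in the 16 cells, 23 had a window. An NF-κB match was held by 5 of these (21.7%), namely Cxcl1, Cxcl10, Cxcl2, Nfkbia and Thbs2. TATAAA was present in 5 of the same 23 windows (21.7%). Of 41 list or named genes that were lower in the 16 cells, 28 had a window. Of these windows, 1 (3.57%, Igfbp5) held an NF-κB match and 3 (10.7%) held TATAAA. Some of the 35 and 41 genes were named because of their difference between these same cells, so the shares are descriptions. These matches are letters in a window and not measured binding.

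Dcn encodes decorin, a small proteoglycan that coats collagen fibrils, and was detected in every member. Its UMIs per virgin cell ran from 9 through a median of 71.5 to 160, and the 4 multipara cells had 165, 147, 19 and 18. The level was 9793 CPM (9505 to 10089) in the virgin and 19272 CPM (17303 to 21404) in the multipara cells, against 229 CPM in virgin pericytes, 1.35 CPM in endothelium and 0.468 CPM in beta cells. Col1a1, a chain of type I collagen, ran from 0 through 8 to 100 UMIs per virgin cell and was detected in 57, and the multipara cells had 28, 7, 3 and 3. Its level was 1947 CPM (1819 to 2081) and 2264 CPM (1625 to 3071), against 34.5 CPM in virgin pericytes. Both genes were thus detected in nearly all stromal cells of both libraries. That follows in part from the rule, which used both genes and needed at least 2 of its genes detected.

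The remaining markers were far less even. C3, the central complement protein, ran from 0 through 2.5 to 279 UMIs and was detected in 35 virgin cells, while the multipara cells had 35, 1, 0 and 0, giving 4743 CPM (4543 to 4949.5) and 1988 CPM (1392 to 2752). Cxcl12, a chemokine that retains leukocytes and progenitor cells, ran from 0 through 4 to 143 UMIs in 46 virgin cells, and the multipara cells had 6, 2, 0 and 1, giving 3131 CPM (2969 to 3300.0) and 497 CPM (227 to 943). Ccl21a was detected in 16 virgin cells at 7309.7 CPM over all 58 and had 0 UMIs in the multipara cells. With each cell thinned to 1500 UMIs, which left out 1 virgin cell, Dcn was detected in 100%, Col1a1 in 86.0%, Cxcl12 in 52.6%, C3 in 49.1% and Ccl21a in 28.1% of virgin stromal cells. The thinned shares for Dcn were 4.76% in pericytes and 0.108% in beta cells, whose median depths before thinning were 3296 and 30366 UMIs against 6658.5 in the stromal cells. The thinned C3 share was 3.17% in pericytes and 15.9% in macrophages, and that of Cxcl12 6.35% in pericytes.

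**Figure D1:**
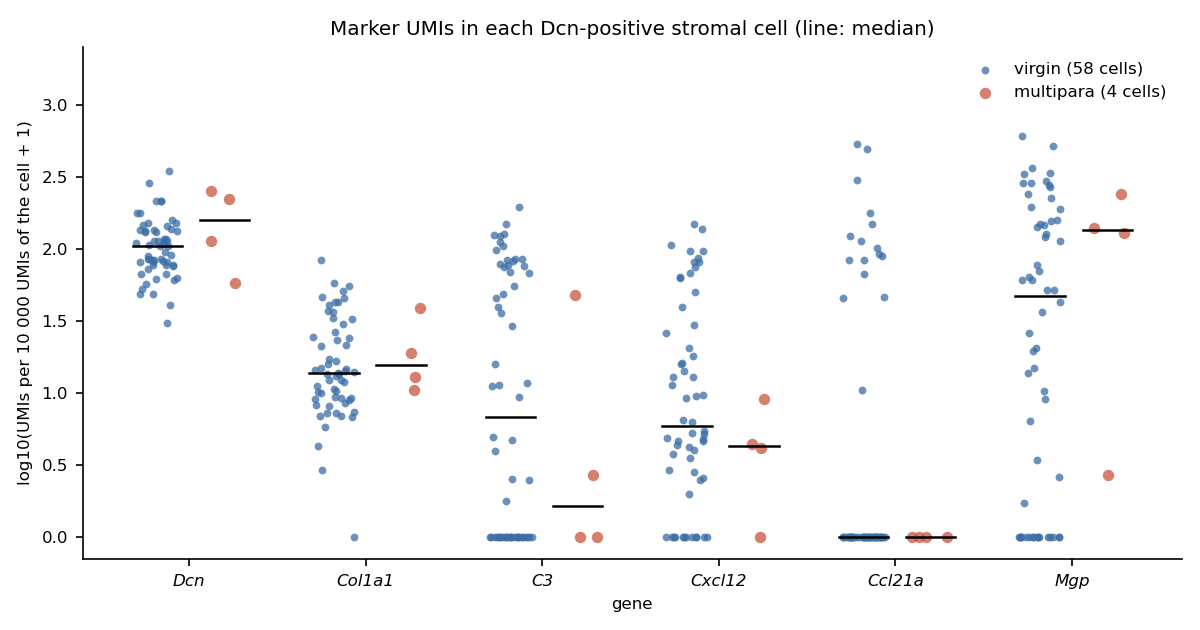
UMIs of 6 genes in each stromal cell, as log10 of UMIs per 10 000 UMIs of the cell plus 1, with virgin cells (58) in blue, multipara cells (4) in red and medians as lines. Dcn lies well above 0 in every cell, whereas Ccl21a lies above 0 in 16 virgin cells alone.

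**Figure D2:**
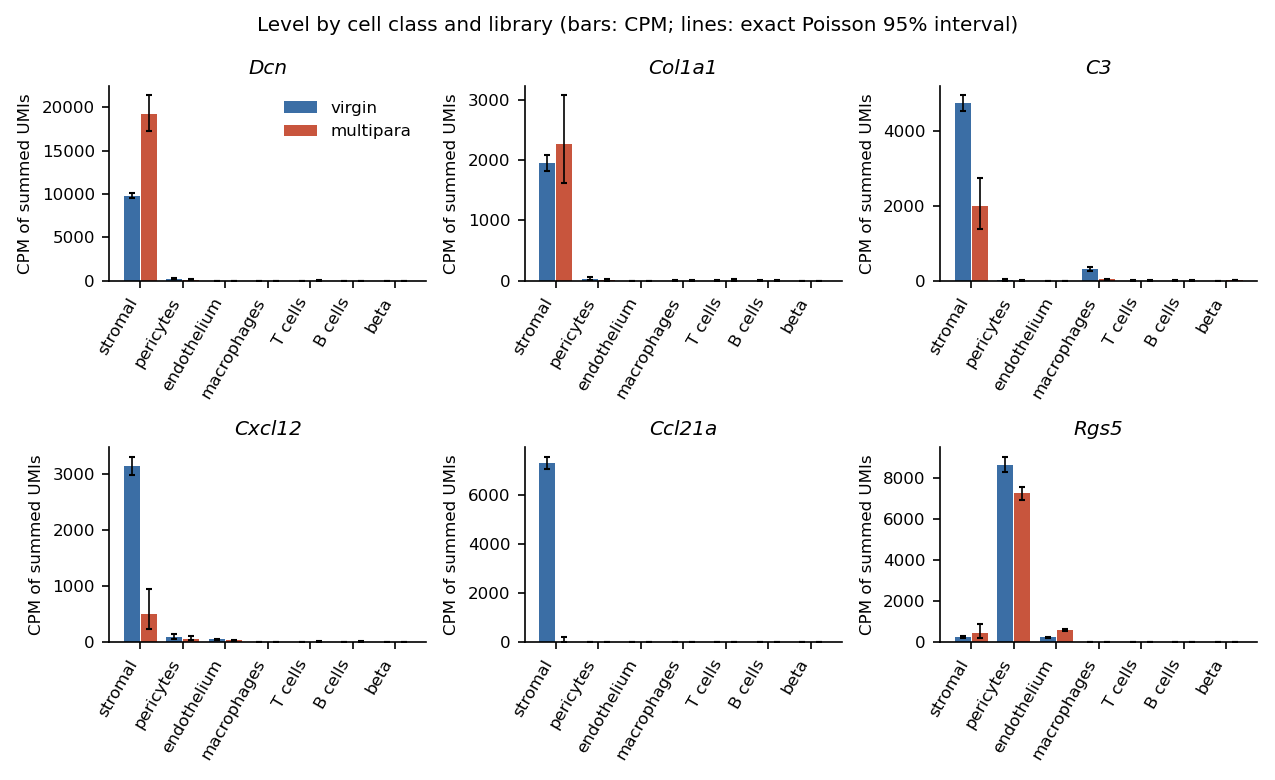
Level of 5 stromal markers and the pericyte gene Rgs5 by cell class and library, as CPM of summed UMIs with exact Poisson 95% intervals. Dcn stands at 9793 CPM in virgin and 19272 CPM in multipara stromal cells and at 229 CPM or less in the other virgin classes, while Rgs5 peaks in pericytes.

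Compared with pericytes of the same library, the virgin stromal cells were higher for 4 of 6 fibrillar collagen genes, 11 of 21 elastic fibre and matricellular genes and 15 of 19 chemokine and cytokine genes, and lower for 4 of 5 contractile genes. A gene was called higher or lower at a 4-fold difference after 20 CPM had been added to both levels, which made 208 of 7370 genes higher (2.82%) and 162 lower (2.2%). These calls describe cells that were chosen by 4 of the same genes, and no test was made. Among the fibrillar collagens Col1a1 stood 56.4-fold and Col1a2 8.43-fold above pericytes. Col3a1, which encodes type III collagen, reached 2794 CPM (2641 to 2954) against 414 CPM (336 to 506). The median log2 ratio of the 6 fibrillar collagens, with 20 CPM added, was 2.68, against −0.16 over all 7370 genes. Among other interstitial collagens 2 of 8 were higher, the fibril-associated Col14a1 (19.4-fold) and Col6a3 (14.8-fold). Of 11 basement membrane genes 1 was higher, Hspg2, and Col4a1 stood at 643 CPM in stromal cells and 1023 CPM in pericytes.

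Proteoglycans and elastic fibre proteins followed the fibrillar collagens. Of 8 small leucine-rich proteoglycan genes 4 were higher, including Dcn (42.8-fold), Lum (59.4-fold) and Ogn (14.6-fold), and 1 was lower, Aspn, at 144 CPM against 1191 CPM. Bgn, which encodes biglycan, missed the threshold at 2.95-fold. Of 21 elastic fibre and matricellular genes 11 were higher and 0 lower, among them Fbln1, which encodes the matrix glycoprotein fibulin-1 (log2 ratio 5.32, 3.75 to 7.61), the microfibril gene Mfap4 (18.3-fold) and Cyr61 (5.98-fold). Collagen processing genes included 2 of 17 that were higher, the crosslinking enzyme gene Loxl1 and the procollagen protease gene Adamts2. Their log2 ratios were 4.65 (3.08 to 6.95) and 3.90 (2.30 to 6.21), each against 3 pericyte UMIs. Of 14 matrix turnover genes 5 were higher, including Serpinf1, which encodes pigment epithelium-derived factor (log2 ratio 6.84, 4.35 to 12.15), the serine protease gene Htra3 (6.61, 4.11 to 11.92) and the gelatinase gene Mmp2 (5.22, 3.34 to 8.28). These 3 genes had 1 or 2 UMIs in the pericytes, and so their intervals are wide.

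Most chemokine and cytokine genes also stood above pericytes. Of 19 chemokine and cytokine genes 15 were higher in the virgin stromal cells than in pericytes and 0 lower, with a median log2 ratio of 2.87 with 20 CPM added and of 3.81 with none added and genes at 0 held at their bound. Among them were Cxcl12 (31.5-fold), the neutrophil attractant Cxcl1 (17.6-fold), the monocyte attractants Ccl2 (2057 CPM against 147 CPM) and Ccl7 (at least 56.6-fold), and Il6 (5.62-fold). Ccl21a, a gene of the rule, stood at least 564-fold higher, with 0 UMIs in pericytes. The 16 virgin cells with Ccl21a held 7938 of the 8950 UMIs of the chemokine and cytokine list, which includes Ccl21a itself. Ccl21a gave 3252 of the 8950, all of them in these 16 cells by their definition. That list summed to 43769 CPM in these 16 cells, 3840 CPM in the other 42 and 915 CPM in pericytes. Of 11 complement genes 5 were higher, including C3 (log2 ratio 9.10, 7.25 to 12.15), Clu, which encodes the complement inhibitor clusterin (9.02, 6.54 to 14.33), and C4b (6.82, 4.96 to 9.87), each against 1 or 2 pericyte UMIs. Serping1, the C1 inhibitor, was at 2034 CPM against 669 CPM and C1s1 at 832 CPM against 509 CPM, both below the threshold. Of 15 interferon response and class I genes 3 were higher, H2-K1 (4.85-fold), B2m (4.82-fold) and H2-D1 (4.71-fold). The depth of the virgin stromal cells was larger than that of pericytes, and thinning both to 1500 UMIs left the number of genes called within 1.5 times.

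Growth factors and their binding proteins were higher for 12 of 28 genes and lower for 0. Igfbp4, an inhibitory binding protein of insulin-like growth factors, was at 2434 CPM against 112 CPM (21.7-fold), Igf1 itself had 111 UMIs against 1 (log2 ratio 5.85, 3.35 to 11.17), and Gas6, a ligand of the Axl receptor family, was at 1180.1 CPM against 17.3 CPM. Igfbp3 had a log2 ratio of 7.12 (4.63 to 12.43) on 267 UMIs against 1, and Igfbp6 was at least 25.9-fold higher. Of 13 growth factor receptors 1 was higher, Pdgfra, a classic fibroblast receptor, with 64 UMIs in 30 stromal cells and 0 in pericytes (at least 11.1-fold), and 1 lower, the pericyte receptor Pdgfrb, at 117 CPM against 807 CPM. Of 13 genes of lymph node reticular stroma 9 were higher, among them the lysophospholipase gene Enpp2 (at least 51.6-fold) and the adhesion gene Vcam1 (15.1-fold). The 16 cells with Ccl21a held 4030 of the 4234 virgin UMIs of that list, which includes Ccl21a itself. The adventitial progenitor markers Ly6a, Cd34 and Pi16 were higher by at least 16.5-fold, 7.46-fold and 4.86-fold, and made 3 of 6. Against all other non-endocrine cells 0 of 9 genes of that list were higher and 2 lower, and it summed to 472 CPM in the stromal cells and 4806 CPM in endothelium. Of 14 retinoid, metal and detoxification genes 5 were higher, among them the secreted peroxidase gene Gpx3 (5.58-fold). Adipocyte differentiation genes were higher for 0 of 8 and lower for 2, Cd36 and Fabp4, while Lpl stood at 841 CPM against 237 CPM.

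Other lists showed few or no calls toward the stromal cells. Of 22 mesenchymal transcription factors 1 was higher, Nfib (5.58-fold), and Tcf21 stood at 117 CPM against 164 CPM. Of 6 hormone receptors 0 passed the 4-fold threshold in either direction: the prolactin receptor gene Prlr had 10 UMIs against 5, and the estrogen receptor gene Esr1 had 6 UMIs against 3. Contractile genes were lower for 4 of 5 and higher for 0. Acta2 was at 121 CPM against 2676 CPM, Tagln at 229 CPM against 2063 CPM, Myh11 was 18.5-fold lower, and Des stood close at 636 CPM and 708 CPM. Of the 9 pericyte markers, 4 of which the rule used, 7 were lower. Of 29 immediate early and heat shock genes linked to tissue dissociation 1 was higher, Ier3, and their summed level was 40920.2 CPM against 42910.2 CPM. Endocrine genes were higher for 0 of 8, and of 5 cell cycle inhibitors 0 passed in either direction. Of 9 stress genes named by the study 1 was higher, Nupr1, with 190 UMIs in 47 cells.

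The multipara cells gave similar calls against multipara pericytes where their depth allowed one. In that library 123 of 4584 genes were higher (2.68%) and 886 lower (19.3%), where a gene at 0 UMIs in the stromal cells could still stand at up to 165.7 CPM. Of 86 genes higher in the virgin cells that could also be tested in the multipara cells, 62 (72.1%) were higher there too, which was 50.4% of the multipara calls. Fibrillar collagens were higher for 3 of 4, other collagens for 5 of 5, proteoglycans for 4 of 6, elastic fibre genes for 5 of 13 and matrix turnover genes for 7 of 10. Dcn stood 175-fold above the pericytes, whose 29 UMIs all came from 1 cell, and Col1a1 297-fold on 41 UMIs against 2 (log2 ratio 8.22, 6.27 to 11.31). Chemokines were split, with 3 of 7 higher, Cxcl12 among them (7.68-fold), and 3 lower. Cxcl1 and Ccl2, 2 of the lower genes, had 0 UMIs in the stromal cells and 72.4 and 64.7 CPM in the pericytes, which is under the 165.7 CPM that 0 UMIs allow, so lower levels of these genes were not detectable at this depth.

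The virgin stromal cells were also compared with all other non-endocrine cells, and the genes outside the lists with the largest folds are named. With the same 4-fold rule 262 of 12906 genes were higher (2.03%) and 211 lower (1.63%). Dpt, which encodes the collagen-binding dermatopontin, stood at 623 CPM on 277 UMIs, against 2 UMIs in the other cells (log2 ratio 10.56, 8.69 to 13.61). Cpxm1, a carboxypeptidase-like gene, had 339 UMIs against 3 (10.26, 8.70 to 12.55). Next came the methyltransferase gene Inmt 582-fold, Clec3b, which encodes tetranectin, 489-fold, and the cartilage intermediate layer protein gene Cilp 422-fold higher. Crispld2, Gdf10, Abca8a and Dclk1 followed at 164-fold, 112-fold, 85.9-fold and 73.9-fold. Gsn, which encodes the actin-severing protein gelsolin, was found in all 58 virgin cells (1, 40.5 and 163 UMIs as lowest, median and highest) and in the 4 multipara cells (59, 125, 12 and 22). Its level of 7370.4 CPM was 65.1-fold above other non-endocrine cells and 7.06-fold above pericytes. In the multipara library the 4-fold rule made 325 of 11715 genes higher than in other non-endocrine cells (2.77%) and 784 lower (6.69%), with 6 of 6 fibrillar collagens, 5 of 6 proteoglycans and 11 of 18 elastic fibre genes higher. Dpt (489-fold), Inmt (88.9-fold), Gsn (91.9-fold) and Cilp (196-fold) were higher there as well. In the virgin library Vtn (29.1-fold) and Cygb (34.0-fold) also stood above other non-endocrine cells but within 4-fold of pericytes. Apoe, the lipid carrier, had 4870 UMIs in 56 virgin cells and stood 18.2-fold above pericytes but 3.75-fold above all other non-endocrine cells.

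The virgin cells fell into sets that were defined after their values had been seen, so the differences between sets are descriptions. The 16 Ccl21a-high cells (27.6% of 58, 16.7 to 40.9) had 5 or more Ccl21a UMIs, and the other 42 had 0. The 42 were assigned in a fixed order. First, 11 cells had 5 or more C3 UMIs (C3-high), then 10 of the others had 5 or more pericyte-gene UMIs (pericyte-gene), and 21 remained. The Ccl21a-high cells were deeper, with a median of 11632.5 UMIs (5321 to 22966) against 6137.5. Across the 58 cells, Spearman correlations of CPM-scaled levels were 0.80 for C3 with Clu, 0.81 for the class II genes Cd74 and H2-Ab1, −0.73 for C3 with Mgp, 0.71 for Col1a1 with Col3a1 and −0.09 for Dcn with Col1a1. The cells share 1 library and differ in depth, and no test was made.

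**Figure D3:**
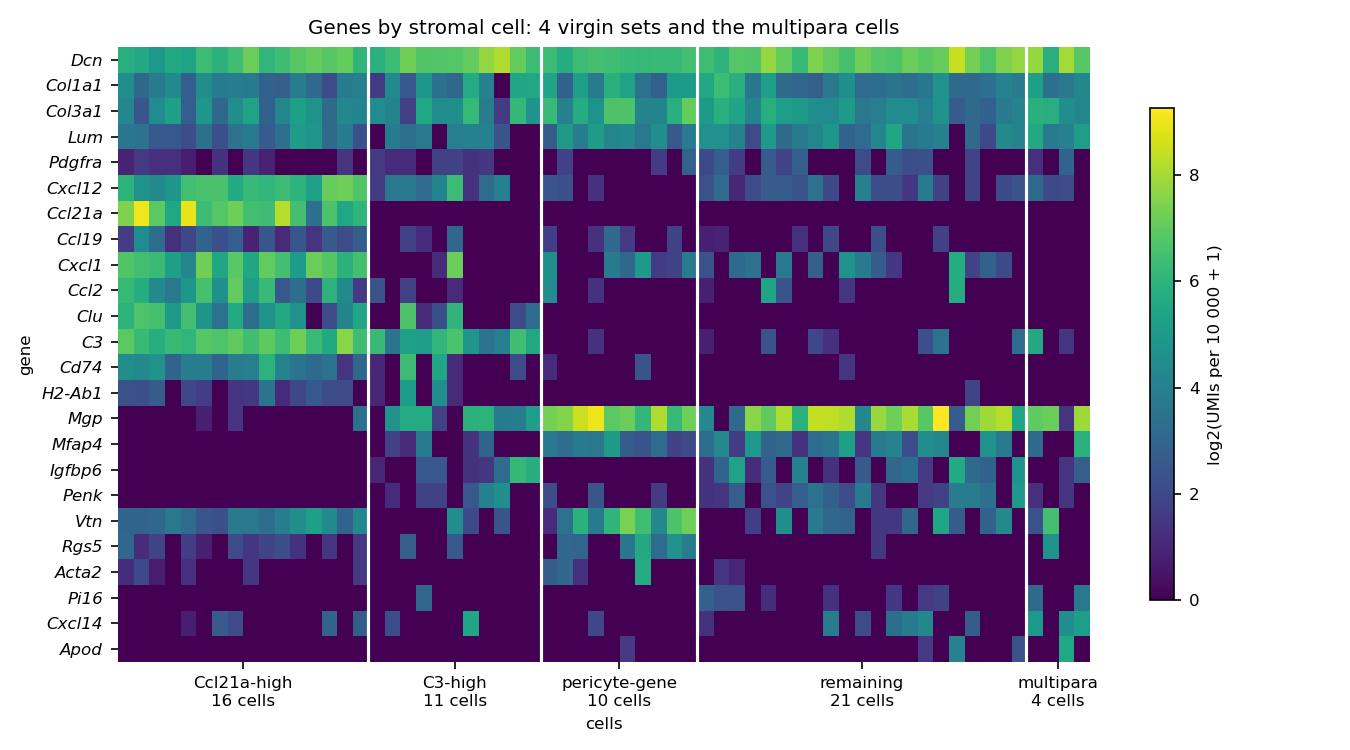
Level of 24 genes in each of the 62 stromal cells, as log2 of UMIs per 10 000 UMIs of the cell plus 1, with the 4 virgin sets and the multipara cells side by side. Dcn runs through all cells, the chemokine genes, Clu and C3 are brightest in the 16 Ccl21a-high cells, and Mgp is dark there and bright in most other cells.

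The Ccl21a-high cells carried chemokines and genes of lymph node reticular stroma, and lacked several elastic fibre genes. Ccl21a lies on the minus strand at chr4:42772860-42773993 (GRCm38), beside Ccl19 at chr4:42754525-42756577. In the 16 cells Ccl21a had 6 UMIs at the lowest, 104.5 at the median and 855 at the highest, which was 26.3% of its UMIs in this set. The summed level was 17931 CPM, at least 1575-fold above the other 42 cells. Mice carry several near-identical Ccl21 copies, and 54.4% of the 91-base windows of the Ccl21a transcript also occur in another copy, so the assignment of reads among the copies is uncertain. In the 16 cells Ccl21b, which shares 17.6% of these windows, had 0 UMIs and Ccl21c 1. Counts of the copies Gm21541 and Gm13304, which share 54.4% and 53.2%, are not reported here. Ccl19 had 1, 3.5 and 35 UMIs as lowest, median and highest in the 16 cells and 0, 0 and 6 in the 42, a 5.33-fold difference in level, and it was detected in all 16 and in 14 of 42.

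Of 19 chemokine and cytokine genes 12 were higher in the Ccl21a-high cells and 0 lower, where 75 of all 5556 genes were higher (1.35%) and 104 lower (1.87%). The 12 include Ccl21a, which was higher by the definition of the sets. The median log2 ratio of the 19 genes with 20 CPM added was 2.25, against −0.11 over all genes tested. Cxcl12 had 24, 70.5 and 143 UMIs against 0, 2 and 65 (9.03-fold). Cxcl1 had 22, 70 and 246 UMIs against 0, 1 and 114 (8.62-fold). Both were present in every Ccl21a-high cell, and their ranges overlapped those of the other cells through a few high values. Ccl2 had 1, 34.5 and 166 UMIs against 0, 0 and 31 (14.8-fold). The interferon-induced Cxcl9 had 125 UMIs in 9 of the 16 cells and 0 in the 42 (at least 60.5-fold), and Cxcl10 was 5.13-fold higher. The neutrophil attractant Cxcl2 was 17.8-fold higher.

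Reticular stroma genes were higher for 8 of 13, a list that holds Ccl21a itself and shares 5 further members with the chemokine list. Bst1, which encodes a stromal surface enzyme, had 38 UMIs in 12 of the 16 cells and 2 UMIs in 1 of the 42 (log2 ratio 4.79, 2.83 to 7.88). Cxcl13 had 17 UMIs in 4 cells against 1 (4.63, 1.95 to 10.01), and the BMP antagonist gene Grem1 was 12.8-fold higher on 97 UMIs in 10 cells against 11 in 2. The leukocyte adhesion gene Vcam1 was 6.97-fold higher, the B cell survival factor gene Tnfsf13b 5.94-fold, and Tnfsf11, which encodes RANKL, at least 13.1-fold on 27 UMIs in 7 cells against 0. Madcam1 had 0 UMIs, and Il7 had 12 UMIs against 7 (2.49-fold, interval of the log2 ratio −0.15 to 2.90). Lymphatic endothelium also makes Ccl21a, and its markers Prox1 and Lyve1 had 1 and 3 UMIs in all 58 cells and Reln 0. Other genes of the lymphatic list were present, Pdpn with 31 UMIs in 18 cells and Fgl2 with 136 UMIs in 20 cells, 0 of the latter in the Ccl21a-high cells. With Ccl21a these made 3 of 3 tested genes of that list that stood above pericytes.

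Of 11 complement genes 2 were higher in these cells, C3 and Clu, and 0 lower. C3 had 29, 104 and 279 UMIs in the 16 cells against 0, 0 and 80 (7.14-fold), and Clu had 0, 32 and 167 against 0, 0 and 83 (8.71-fold), with 15 of 16 and 6 of 42 cells positive. Of 14 interferon response and class I genes 0 were higher and 1 was lower at 4-fold. Their median log2 ratio with 20 CPM added was 0.92, against −0.11 over all genes tested. The list summed to 13752 CPM in the 16 cells and 7494 CPM in the 42. Cd74, the class II invariant chain, was found in all 16 cells with 1, 15 and 69 UMIs and in 8 of 42 (4.25-fold). Mfge8, which encodes a phagocytic bridging protein, had 3, 63.5 and 176 UMIs against 0, 1 and 45 (10.7-fold). Csf2rb, a cytokine receptor chain gene, was detected in all 16 cells and in 2 of 42 (15.2-fold). The NF-κB inhibitor gene Nfkbia was 5.82-fold higher. Of 29 dissociation-linked genes 4 were higher, Nfkbia among them, and the list summed to 50793 CPM in the 16 cells and 34125 CPM in the 42. That difference moves with the chemokines, and its part in the result was not tested.

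Many matrix genes were lower in the Ccl21a-high cells. Mgp, which encodes matrix Gla protein, an inhibitor of calcification, had 8 UMIs in 3 of the Ccl21a-high cells and 3540 UMIs in 39 of the other 42, with 0, 0 and 5 UMIs against 0, 51 and 349 (305-fold lower). Of 21 elastic fibre and matricellular genes 7 were lower and 1, Thbs2, was higher. Sparcl1 had 1 UMI against 416 (log2 ratio −8.16, −13.47 to −5.68) and Ctgf 2 against 161 (−5.79, −8.85 to −3.92). Mfap4 had 0 UMIs against 246 and was lower by at least 56.4-fold, and Fbln1 had 9 against 221 and was 16.9-fold lower. Of 14 matrix turnover genes 6 were lower, including Serpinf1 (5.14-fold). Igfbp6, with 0 UMIs against 149, and the enkephalin precursor gene Penk, with 0 against 98, were lower by at least 34.2-fold and 22.5-fold. Of 6 fibrillar collagens 0 were higher and 1 lower, with Col1a1 at 1339.9 CPM against 2364 CPM, and Dcn stood at 7212 CPM against 11569.9 CPM. When all cells were thinned to 1500 UMIs, 40 genes were higher and 112 lower, and when each cell had equal weight, 77 and 103.

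**Figure D4:**
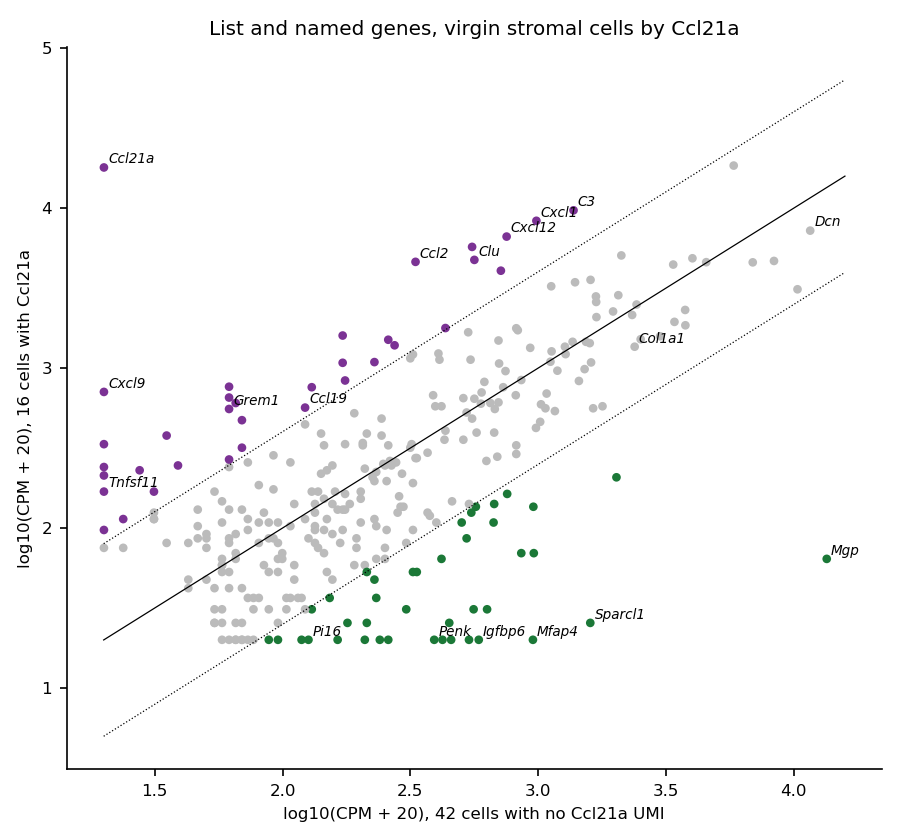
Level of list and named genes in the 16 Ccl21a-high cells (vertical) against the other 42 virgin stromal cells (horizontal), as log10 of CPM plus 20, with the 4-fold lines dotted, higher genes in purple and lower genes in green. Ccl21a and Cxcl9 lie at 0 CPM in the 42 cells, Mgp, Mfap4 and Sparcl1 lie at the bottom right, and Dcn and Col1a1 lie within 4-fold.

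The 42 cells without Ccl21a are described by the 3 sets. Their C3 and pericyte-gene levels follow from the UMI cuts that defined these sets. The 11 C3-high cells had 5, 24 and 80 C3 UMIs, and Clu had 83, 54 and 3 UMIs in 3 of them and 1 UMI in each of 3 more. Class II genes were uneven in this set, with 66 and 36 Cd74 UMIs in 2 cells, 1 UMI in each of 3 more, and H2-Ab1 in 4 cells. At least 1 UMI was found in 1.54% of virgin pericytes for Clu and in 9.25% of virgin beta cells for Cd74, so cells with a single UMI are not read as expressing either gene. The mesothelial factor gene Wt1 was seen in 5 of these cells, and the mesothelial markers summed to 263 CPM in this set, 27.6 CPM in the Ccl21a-high cells, 33.9 CPM in the pericyte-gene cells and 45.3 CPM in the remaining cells. The 10 pericyte-gene cells had 31, 105 and 349 Mgp UMIs, 1, 41 and 89 UMIs of Vtn, which encodes vitronectin, and 0, 4.5 and 23 Rgs5 UMIs. Acta2 was seen in 4 of them, 25 of its 37 UMIs in 1 cell, and Igfbp6, Pi16 and Sfrp1 were at 0. The 21 remaining cells had 0, 82 and 238 Mgp UMIs and held Igfbp6 in 15 cells, Sfrp1, a Wnt antagonist gene, in 15, Penk in 17 and the adventitial progenitor marker Pi16 in 8. Within the 42 cells C3 and Clu had a Spearman correlation of 0.64, and Mgp and Vtn one of 0.56.

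The multipara cells had no Ccl21a, and this held for their whole library. Over all deposited barcodes, the virgin library had 3730 UMIs of Ccl21a and 142 of Ccl19, and the multipara library had 0 of both. Of the kept cells, 19 of 4391 in the virgin library had 5 or more Ccl21a UMIs (0.433%, 0.261 to 0.675) and 0 of 3374 in the multipara library, which at 3 counts allows a share of up to 0.0889%. Among the stromal cells the comparison is 16 of 58 against 0 of 4, and by the same 3 counts 0 of 4 allows a share of up to 75%, so a lower share within the multipara stromal cells was not detectable at this depth.

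Because 4 cells stand for the multipara library, the differences in level between libraries describe these cells. A gene was called at a 2-fold difference with the exact interval of its ratio on 1 side of equality, which made 123 of 5697 genes higher in the multipara cells (2.16%) and 61 lower (1.07%). The median log2 ratio over all genes, with 20 CPM added, was −0.25. With other scalings, which shift all log2 ratios by 0.84 (TMM) and 0.83 (median-of-ratios), the higher share of the calls fell from 66.8% to 8.31% and 9.49%, so calls close to equality cannot be read. The genes with the highest ratios were Apod, an apolipoprotein gene (log2 ratio 6.20, 5.07 to 7.48), Nid2 (3.84, 2.26 to 5.30), Fam198b (3.73), the chemokine gene Cxcl14 (3.52, 2.95 to 4.07) and the matricellular Smoc2 (3.43, 2.54 to 4.26), followed by Zfhx4, Dpep1, Sfrp1, Mgst3 and Pi16 at 3.03 to 2.81. All 27 Apod UMIs came from 1 multipara cell, as did all 27 Sfrp1 UMIs. Cxcl14 had 22, 13, 6 and 0 UMIs in the 4 cells, and 88 UMIs in 15 of the 58 virgin cells.

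Fibrillar collagens were not called between the libraries, while some genes of other matrix lists were. Of 6 fibrillar collagens 0 were called, with Col1a1 at a log2 ratio of 0.22 (−0.27 to 0.67) and Col3a1 at 0.61 (0.25 to 0.94). Dcn was at 0.98 (0.82 to 1.13), just short of 2-fold. Of 8 proteoglycan genes 2 were higher, Lum (1.25, 0.82 to 1.65) and Ogn (1.90, 1.07 to 2.64). Of 11 basement membrane genes 2 were higher, Lamb1 and Nid2, and 1 of 8 other interstitial collagens was higher. Elastic fibre and matricellular genes were higher for 2 of 21, Fbln5 and Tnxb, and lower for 2, Cyr61 and Thbs1. Of 14 matrix turnover genes 2 were higher, Ctsk and Mmp14, and 1 lower, Adamts1. Of 17 collagen processing genes 0 were called in either direction. Igf1 was higher (1.73, 0.85 to 2.51), at 828 CPM against 249 CPM. Lowering each ratio by the TMM shift of 0.84 turns the sign for Col1a1 and Col3a1 and leaves Lum and Igf1 under 2-fold. The shift of 0.17 does neither.

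Chemokines were lower in the multipara cells for 6 of 19 genes and higher for 1, Cxcl14. Cxcl12 had a log2 ratio of −2.66 (−3.79 to −1.73). Cxcl1 and Ccl2 had 0 UMIs in the multipara cells and were lower by at least 23.9-fold and 12.4-fold, and Ccl21a by at least 44.1-fold. Of 11 complement genes 3 were lower, C3 (−1.25, −1.77 to −0.78), C4b and Clu (at least 13.6-fold). Several of these calls were lost without the 16 Ccl21a-high virgin cells. Against the 42 other virgin cells alone, where 95 of 4081 genes were higher (2.33%) and 45 lower (1.1%), C3 changed direction (0.55, 0.016 to 1.05). Of its 36 multipara UMIs, 35 came from 1 cell. Lowering the ratio by the TMM shift of 0.84, which was computed with all 58 virgin cells, turns its sign again. The shift of 0.17 leaves it above 0. Of 13 chemokine and cytokine genes tested in that comparison 2 were higher, Ccl11 and Cxcl14, and 1 lower, Cxcl1. The interval of Cxcl12 then spanned 0 (−0.56, −1.71 to 0.40) and Ccl2 was no longer called. Of 10 complement genes 2 were lower. Cxcl1 and Clu, at 0 in the multipara cells, were still called lower, but in the 42 cells 114 of the 254 Cxcl1 UMIs and 83 of the 143 Clu UMIs came from 1 cell each. Cxcl14 (3.11), Smoc2 (2.86), Dpep1 (2.43) and Pi16 (2.06) stayed higher.

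Immediate early genes were lower in the multipara cells. Of 29 dissociation-linked genes 14 were lower and 0 higher, among them Nfkbia (−5.22, −10.53 to −2.74), Atf3 (−4.18, −9.49 to −1.69), Btg2 (−3.54, −6.59 to −1.68), Fos (−2.97, −4.04 to −2.09) and Junb (−1.72, −2.35 to −1.15). Fos, the early transcription factor gene, had 10 UMIs in 3 multipara cells and 1929 UMIs in 57 virgin cells. Their summed level was 17119 CPM in the multipara and 40920.2 CPM in the virgin stromal cells, while in pericytes it was 45641 and 42910.2 CPM. Against the 42 virgin cells without Ccl21a, Nfkbia (−3.65), Atf3 (−3.62), Btg2 (−3.50), Fos (−2.85) and Junb (−1.71) stayed lower, while the intervals of Jun (−0.54) and Dnajb1 (−2.11) spanned 0. Hormone transcripts were higher. Of 8 endocrine genes 3 were higher in the multipara cells, and Ins2 stood at 17229 CPM against 5939 CPM. The endocrine list summed to 27389.7 CPM against 11012 CPM in the stromal cells and to 39369 against 19450.1 CPM in pericytes. The part of either list in the other differences was not tested.

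**Figure D5:**
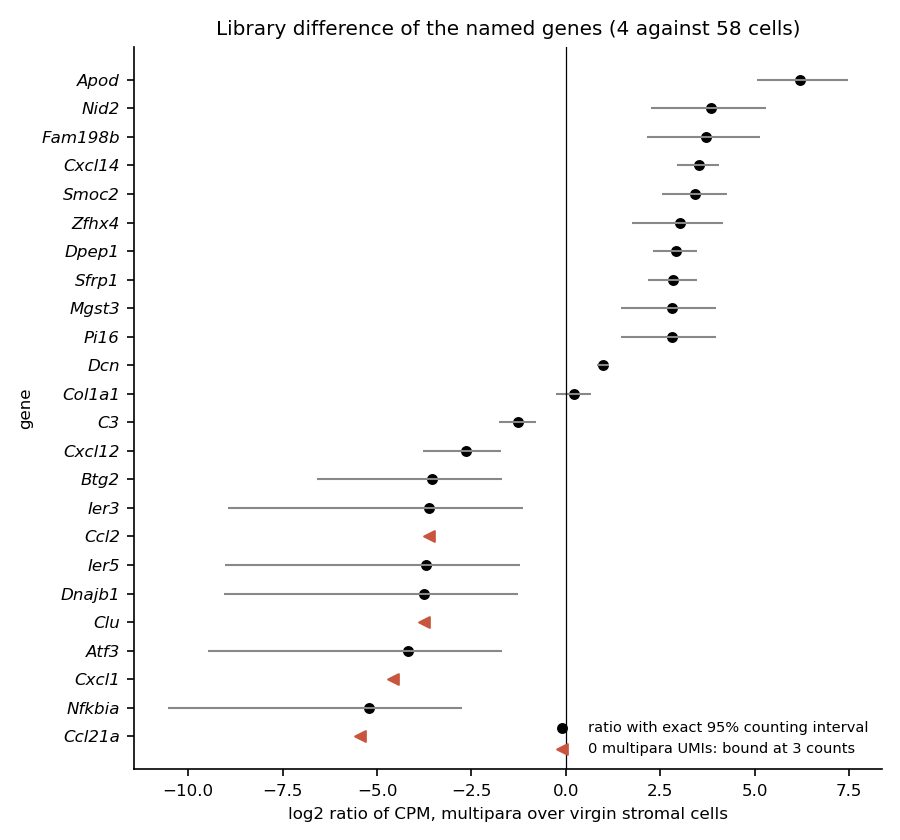
Log2 ratio of CPM, multipara (4 cells) over virgin (58 cells), for the stromal markers and the genes with the highest and lowest ratios, with exact 95% counting intervals and with red triangles for genes at 0 multipara UMIs, drawn at their bound. Col1a1 lies at 0.22, Dcn at 0.98, Apod at 6.20, and Ccl21a, Cxcl1, Clu and Ccl2 are bounds on the low side.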

How the data were processed

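Single-cell libraries of 3′ transcripts, 1 per group, were aligned and counted by the authors with Cell Ranger 3.1.0 on the mouse build GRCm38 (mm10), per the submitters' processing notes, which also name Seurat 3.0. The deposited values were raw UMI counts per gene and barcode, and the limits on genes, UMIs and mitochondrial share followed the study's methods. Kept cells had over 200 genes but under 6000, a total under 60000 UMIs and a mitochondrial share below 10%. Members, classes and 37 gene lists were chosen with earlier results of these data known. Clusters were not used. Scrublet (scanpy 1.11.5) called 1.39% of virgin and 1.30% of multipara cells doublets, 0 of them stromal, and none were removed.

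Counts were summed per group and scaled to CPM, with exact Poisson, Clopper-Pearson and conditional binomial intervals (Python 3.11.15, numpy 2.4.6, scipy 1.17.1, pandas 2.3.3). Genes with 10 or more UMIs over the cells compared were called. Class and set calls used a 4-fold difference with 20 CPM added, and library calls a 2-fold difference with the interval on 1 side of equality. The calls and ratio intervals were checked on simulated Poisson sums. These held no spread between cells, so the check does not cover that spread. TMM factors came from edgeR 4.0.16 (R 4.3.3). Motifs were sought in RefSeq promoters of GRCm38.p6, and gene positions come from GENCODE M21, which held 30934 of the 31053 identifiers (99.6%).

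Named genes were the markers, up to 4 genes of highest CPM per list, the 15 outside the lists with the largest fold over other non-endocrine cells at 100 CPM or more, the 10 highest and 10 lowest library ratios at a mean of 200 CPM or more, and the 10 highest and lowest set ratios at 100 CPM or more. Other genes named as examples were chosen after their values were seen. A symbol that occurred more than once (36 symbols) was read from its first entry. Some genes that the naming rule covers are not reported here.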

Additional observations from a re-analysis of the deposited data

Results flagged for a closer look

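Stromal marker UMIs were also found in barcodes that the comparisons did not use. In the virgin library 4 barcodes outside the cell limits met the marker rule, with marker sums of 7 to 110. Of these, 3 had mitochondrial shares of 11.9%, 23.2% and 21.9%, and the other had 6501 genes. A further 2 kept virgin barcodes met the marker rule with 15% or more hormone UMIs. The first had 31291 UMIs, of which 52.4% were hormone transcripts, and a marker sum of 72, and the second had 34955 UMIs, 20.4% hormone transcripts, 250 Dcn, 217 C3 and 244 Ccl21a UMIs. In the multipara library 1 barcode outside the limits met the rule, with 8176 UMIs, a mitochondrial share of 17.6% and 95 Dcn UMIs.

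Outside the stromal cells the virgin library held 478 Ccl21a UMIs, where the multipara library held 0. Alpha cells carried 248 of them, 244 in the barcode described above, and a single unassigned barcode carried 155.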

How the results depend on the processing

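Of the recomputed summary values, 75 kept their direction and stayed within 1.5 times or within their interval, and 13 did not. Without the limits on genes, UMIs and mitochondrial share the virgin stromal share was 3.59%. Thinning to 1500 UMIs gave 77 genes higher than in pericytes and 583 higher than in other non-endocrine cells in the multipara library, and 39 higher and 32 lower in multipara than in virgin stromal cells. Thinning also gave 40 genes higher in the Ccl21a-high cells. Without a minimum of UMIs the multipara count against pericytes was 319. With 5 CPM added in place of 20, the virgin counts were 451 against pericytes and 533 against other non-endocrine cells, and the multipara count against the latter was 855. Library calls were 25 higher and 276 lower with TMM and 28 and 267 with median-of-ratios. With the latter computed over 671 genes at 200 CPM or more, which shifted log2 ratios by 0.17, 93 were higher and 82 lower. Leaving out each multipara cell in turn, chosen after seeing the data, gave 122 to 137 higher and 53 to 65 lower. Of 383 recomputed log2 ratios of single genes, 328 stayed within the interval of the main value, 53 moved outside it and 2 changed direction. The last were C3 against the virgin cells without Ccl21a (0.55) and Dnajb1 after thinning (0.026, with 0 multipara UMIs).

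No paired analysis was possible because each group was a single library. Depth limits the multipara cells most, since 0 UMIs allow up to 165.7 CPM, and the cause of the moves above was not tested.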
